A study of Mus musculus with 6 samples.

Results

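The genes described here belong to the cAMP and protein kinase A (PKA) pathway that controls egg meiosis, and were measured in RNA-seq libraries of mouse oocytes at metaphase II, the arrest stage at which an egg awaits sperm. They are 10 of 24254 gene rows of the deposited table, taken by symbol: the receptors Gpr3 and Gpr12, the adenylyl cyclases Adcy3 and Adcy9, the phosphodiesterase Pde3a, the PKA regulatory subunits Prkar1a and Prkar2a, the PKA catalytic subunits Prkaca and Prkacb, and the anchoring protein Akap1. The table holds 6 libraries: 3 of oocytes matured in culture (in vitro maturation, IVM) and 3 of oocytes matured in the animal (in vivo, IVO). No source used here gives the strain, age, hormone treatment, culture medium or number of oocytes per library, or says whether the 3 libraries of a group came from separate animals. The p-values therefore describe the spread among these libraries alone, which may be technical. The series title sets the question as metabolism and gene expression of the egg after maturation in culture.

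A fully grown oocyte stays in prophase while its cAMP is high. Receptors that are active without added ligand (GPR3 in the mouse, GPR12 in the rat) couple through a stimulatory G protein to adenylyl cyclase, and the cAMP made there releases the catalytic subunits of PKA from their regulatory subunits. PKA then restrains the phosphatase CDC25B and supports the kinase WEE2, which keeps the cell cycle kinase CDK1 off. Meiosis resumes when the phosphodiesterase PDE3A, freed from inhibition by cGMP from the surrounding cumulus cells, breaks the cAMP down. Anchoring proteins such as AKAP1, which sits on the outer mitochondrial membrane, fix where in the cell PKA is held. At metaphase II that decision lies in the past, and transcripts of these genes are a stored stock.

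Summed FPKM (fragments scaled by transcript length and by the mapped fragments of the library) was 353438 to 364983 in IVM libraries and 394233 to 402054 in IVO libraries. Read totals are not known. Judged from the spacing of the lowest FPKM values, the remaining libraries had 0.785 to 0.914 times the depth of IVM replicate 1. All 12 oocyte markers were above the filter, with a summed FPKM of 13642 to 13994 in IVM and 8924 to 10798 in IVO, a sum carried mostly by Gdf9. Of these markers 9 were higher in IVM and 1, Dppa3, was lower (limma adjusted p under 0.05). The mean FPKM in IVM over that in IVO was 38.3 for the zona pellucida gene Zp2, 12.7 for Zp3, 9.85 for Ooep, 9.66 for Nlrp5, 8.82 for Padi6 and 8.02 for Zp1, against 1.23 for Gdf9. Of 23 markers of cumulus and granulosa cells, 11 reached a mean FPKM of 1, and the whole list summed to 36.4 to 63.1 in IVM and 31.4 to 70.2 in IVO. Inha and Kitl were higher in IVM and Tnfaip6, Inhba and Sdc4 were lower, the FSH receptor gene Fshr was listed at 0 in every IVO library, and Areg at 0 in all 6. The cumulus marker Ptx3 was highest in IVM replicate 1 (6.11) and in IVO replicate 2 (9.59). It was listed at 0 in IVM replicates 2 and 3. Tnfaip6 and Ptgs2 were also highest in IVM replicate 1, while Inha (27.7) and Cyp11a1 (3.67) were highest in IVM replicate 2. Ptx3 alone therefore does not rank the IVM libraries by RNA of cumulus and granulosa cells. Of 9 oviduct epithelium markers 3 were tested. The list summed to 221 to 249 in IVM and 264 to 283 in IVO, a sum carried mostly by Cdh1. Cdh1 averaged 158.5 ± 14.0 in IVM and 200.9 ± 18.3 in IVO (SD, n = 3 each). Ovgp1, Foxj1, Krt8, Krt18 and Epcam did not reach the filter. Cldn4 was higher, Cdh1 was lower, and Spp1 was lower at 12.2, 1.31 and 0 in IVM, against 26.7, 67.6 and 31.3 in IVO (limma adjusted p = 0.00612), while Pax8 was listed at 0 in every library. Of 6 blood and immune markers none reached the filter, with sums of 0.678 to 2.29 in IVM and 0.390 to 3.05 in IVO. The part of other cell types in the results was not tested. In bulk libraries of this kind, fewer cells of a type and less RNA per cell cannot be told apart.

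Akap1 was 9.75 times as abundant in IVM as in IVO by mean FPKM. The other 7 tested members had log2 differences of -0.23 to 0.26. Testing required a mean FPKM of 1 or more, which 8 members reached. Of these, 1 was higher in IVM, none was lower and 7 did not pass (limma, Benjamini-Hochberg adjusted p under 0.05 over all genes tested). Over all 7746 tested genes 41.0% passed, 20.6% higher and 20.4% lower in IVM. At an unadjusted p under 0.05 the count was also 1 of 8, against 49.7% of all tested genes. Gpr12 and Adcy3 were under the filter and were not tested. A log2 difference here is IVM minus IVO in log2(FPKM + 1), which understates the change of scarce genes.

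**Figure D1:**
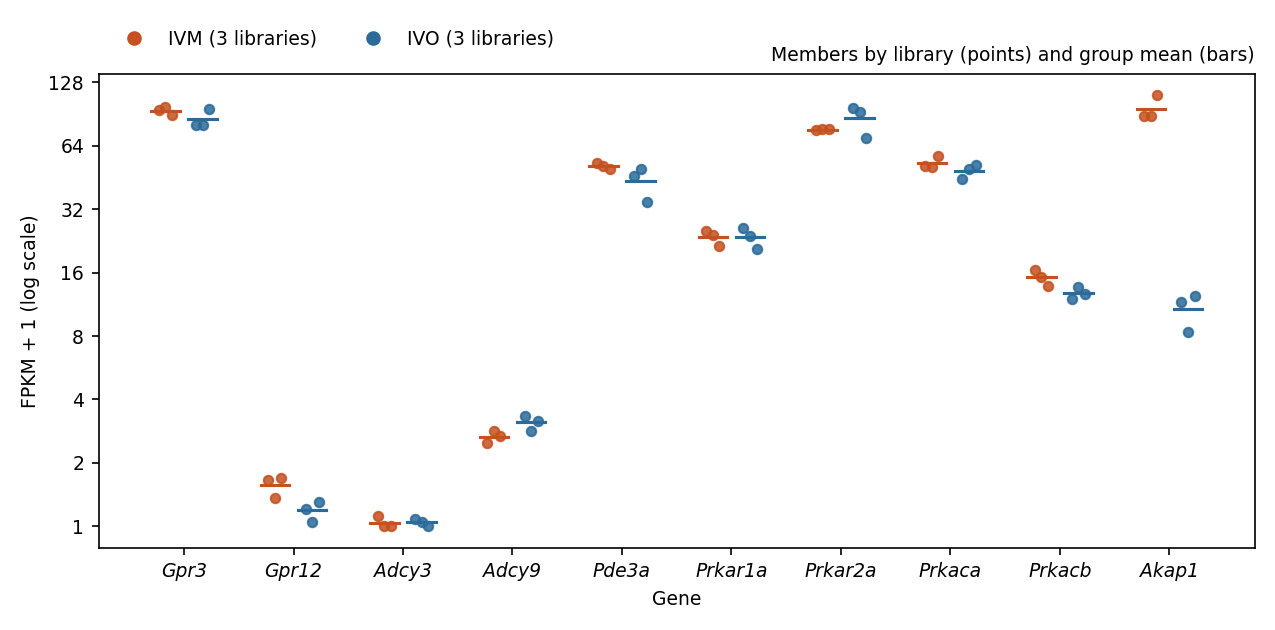
FPKM + 1 on a log axis for each of the 10 genes, with 1 point per library and a bar at the mean FPKM of the 3 libraries, IVM left of IVO. Akap1 lies between 87.5 and 110 FPKM in IVM and between 7.35 and 11.4 in IVO, while the points of Prkar1a, Prkar2a, Prkaca and Gpr3 overlap between groups.

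Akap1 encodes a scaffold that tethers PKA, and also messenger RNA, at the mitochondrial surface (ENSMUSG00000018428.15, GRCm38 chromosome 11, 88830792 to 88864586, minus strand). Its FPKM was 88.1, 87.5 and 110 in IVM replicates 1 to 3, against 10.6, 7.35 and 11.4 in IVO replicates 1 to 3. The lowest IVM library was well above the highest IVO library, so the groups were far from overlapping. The means were 95.2 ± 12.8 in IVM and 9.76 ± 2.13 in IVO (SD, n = 3 each). The log2 difference was 3.17 (SE 0.167, 95% interval 2.79 to 3.55), with a limma Benjamini-Hochberg adjusted p of 6.85e-06. Akap1 was 1 of 27 tested genes with a positive difference of that size or more, and the 5th and 95th percentiles of all tested genes were -0.96 and 1.52. Of the 12 oocyte markers, Zp2, Zp3 and Nlrp5 had larger log2 differences, at 3.54, 3.61 and 3.26. The Akap1 call held in all 18 alternatives, with a log2 difference of 3.00 to 3.31. Without the libraries richest in Ptx3 the difference was 3.05, against 3.17 with all libraries. The authors' deposited table gives Akap1 a q-value of 0.000248 for IVM against IVO. Its smallest q-value between single libraries of a group was 0.996, the same as for the other 7 tested members. Comparisons of 1 library with 1 have no replicates, so that value does not measure how alike the libraries of a group were. An antisense gene, 4930556N13Rik, overlaps Akap1 on the other strand and was listed at 0 in every library. The deposited locus of Akap1, on the minus strand, reaches 88881395, beyond the annotated 5′ end at 88864586. Genes overlapping that further stretch were not searched.

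**Figure D2:**
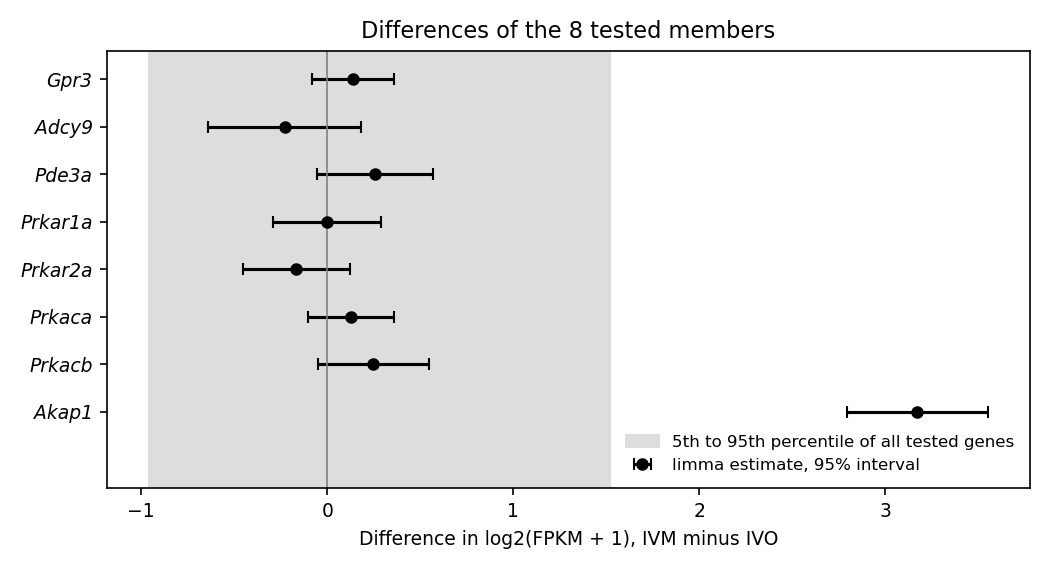
Difference in log2(FPKM + 1), IVM minus IVO, for the 8 tested genes, as the limma estimate with its 95% interval; the grey band spans the 5th to 95th percentile of all 7746 tested genes. Akap1 at 3.17 lies beyond the band, and the intervals of the other 7 include 0.

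The receptor genes were far apart in level. Gpr3, whose product is the Gs-coupled receptor that holds mouse oocytes in prophase (ENSMUSG00000049649.8, chromosome 4, 133209340 to 133212536), had an FPKM of 93.7, 96.6 and 89.0 in IVM, against 79.8, 79.4 and 94.9 in IVO. The highest IVO library, replicate 3, lay inside the IVM range, so the groups overlapped. The log2 difference was 0.14 (SE 0.0969, 95% interval -0.08 to 0.36; limma adjusted p = 0.286). Gpr3 passed without IVO replicate 3 (0.22, limma adjusted p = 0.0449) and when libraries were rescaled to 1 common sum of FPKM (0.28, limma adjusted p = 0.0442; range over its alternatives 0.0442 to 0.676). Cd164l2, on the opposite strand, shares 406 bases with Gpr3 and was listed at 49.9 to 71.1 in IVM and 63.4 to 93.6 in IVO. Whether counting used strand is not stated, so reads of the pair cannot be told apart in that stretch.

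Gpr12, the related receptor that does this work in rat oocytes (ENSMUSG00000041468.7, chromosome 5, 146582398 to 146585239), was near the limit of detection. Its FPKM was 0.660, 0.363 and 0.704 in IVM, against 0.211, 0.0441 and 0.310 in IVO. Every IVM library lay above every IVO library. Without the filter the log2 difference was 0.41 and did not pass (limma adjusted p = 0.0989). Gpr3 therefore held 99.4 ± 0.217% of the summed FPKM of the receptor pair in IVM and 99.8 ± 0.142% in IVO (SD, n = 3 each).

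Both adenylyl cyclase genes were scarce. Adcy3, a cyclase described in rodent oocytes (ENSMUSG00000020654.15, chromosome 12, 4133103 to 4213525), was listed at 0.124 in IVM replicate 1 and at 0 in the other two IVM libraries, against 0.0800, 0.0496 and 0 in IVO. No fold is given, since both groups hold a 0. Cenpo, on the opposite strand, shares 17522 bases with Adcy3 and had 7.53 to 8.45 FPKM in IVM and 13.4 to 21.1 in IVO. Adcy9, a widely expressed cyclase (ENSMUSG00000005580.11, chromosome 16, 4287529 to 4420498), had an FPKM of 1.48, 1.83 and 1.68 in IVM, against 2.35, 1.85 and 2.16 in IVO. The groups lay next to each other without overlapping, the nearest libraries being 1.83 in IVM and 1.85 in IVO. The log2 difference of -0.23 (SE 0.181, 95% interval -0.64 to 0.18) did not pass (limma adjusted p = 0.346), and it did under quantile normalization (-0.52, limma adjusted p = 0.0423; range over its alternatives 0.0423 to 0.588).

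Pde3a, which encodes the phosphodiesterase that ends the arrest and without which mouse oocytes do not mature in the animal (ENSMUSG00000041741.10, chromosome 6, 141249269 to 141507448), was among the abundant members. Its FPKM was 52.0, 50.4 and 48.8 in IVM, against 45.2, 48.8 and 33.7 in IVO. The groups touched without overlapping, at 48.81 in IVM replicate 3 and 48.76 in IVO replicate 2, and IVO replicate 3 was the lowest library. The log2 difference was 0.26 (SE 0.138, 95% interval -0.06 to 0.57; limma adjusted p = 0.171). It passed with rescaling to a common sum (0.39, limma adjusted p = 0.0462) and with quantile normalization (0.38, limma adjusted p = 0.0445; range over its alternatives 0.0445 to 0.378). The paralogue Pde3b, named here after its values were seen, had 54.4 ± 1.14 in IVM and 64.8 ± 5.83 in IVO (SD, n = 3 each; log2 difference -0.24, limma adjusted p = 0.0707). Pde3b passed without IVO replicate 3 (-0.31, limma adjusted p = 0.0157) and with library weights (-0.28, limma adjusted p = 0.0228), and its difference was -0.11 with rescaling to a common sum (limma adjusted p = 0.404). Pde3a held 48.1 ± 1.16% of the summed FPKM of the Pde3 pair in IVM and 39.5 ± 3.03% in IVO (SD, n = 3 each), with 46.8% the lowest IVM library and 42.6% the highest IVO library.

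Among regulatory subunits, which hold PKA inactive until cAMP binds, type II exceeded type I in every library. Prkar2a (ENSMUSG00000032601.13, chromosome 9, 108689314 to 108750436) had an FPKM of 74.7, 75.6 and 75.7 in IVM, against 96.3, 91.8 and 68.6 in IVO. The IVM libraries were nearly alike, and the IVO libraries lay on both sides of them, with replicate 3 below. The log2 difference was -0.17 (SE 0.127, 95% interval -0.45 to 0.12; limma adjusted p = 0.334). Without IVO replicate 3 it was -0.32 and passed (limma adjusted p = 0.0103; range over its alternatives 0.0103 to 0.894). Prkar1a (ENSMUSG00000020612.16, chromosome 11, 109649405 to 109669656) had 24.3, 23.1 and 20.4 in IVM, against 25.1, 23.0 and 19.8 in IVO. The groups covered almost the same range, and the log2 difference was 0.00027 (SE 0.128, 95% interval -0.29 to 0.29; limma adjusted p = 0.999). Prkar1a held 23.0 ± 1.66% of the summed FPKM of this pair in IVM and 21.03 ± 1.24% in IVO (SD, n = 3 each).

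Catalytic subunits are the kinase itself. Prkaca, the alpha form (ENSMUSG00000005469.10, chromosome 8, 83972993 to 83996443), had an FPKM of 50.6, 50.0 and 56.2 in IVM, against 43.5, 49.0 and 50.9 in IVO. The groups overlapped through IVO replicate 3, and the log2 difference was 0.13 (SE 0.102, 95% interval -0.10 to 0.36; limma adjusted p = 0.351). Prkacb, the beta form (ENSMUSG00000005034.15, chromosome 3, 146729574 to 146812990), had 15.4, 14.3 and 12.9 in IVM, against 11.0, 12.7 and 11.7 in IVO. Its groups lay next to each other, 12.9 being the lowest IVM value and 12.7 the highest IVO value. The log2 difference was 0.25 (SE 0.131, 95% interval -0.05 to 0.54; limma adjusted p = 0.161), and it passed with rescaling to a common sum (0.38, limma adjusted p = 0.0427; range over its alternatives 0.0427 to 0.403). Prkaca made up 78.6 ± 2.46% of the pair in IVM and 80.2 ± 1.02% in IVO (SD, n = 3 each).

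Regulatory transcripts outnumbered catalytic ones. The ratio of Prkar1a and Prkar2a together to Prkaca and Prkacb together, in FPKM, was 1.50, 1.53 and 1.39 in IVM, against 2.23, 1.86 and 1.41 in IVO. The ratio of IVO replicate 3 lay within the IVM range, and the other IVO libraries lay above it. Prkar2b, a further type II subunit that was named after its values were seen, averaged 36.9 ± 1.71 in IVM, against 36.9 ± 6.69 in IVO (SD, n = 3 each; limma adjusted p = 0.948).

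**Figure D3:**
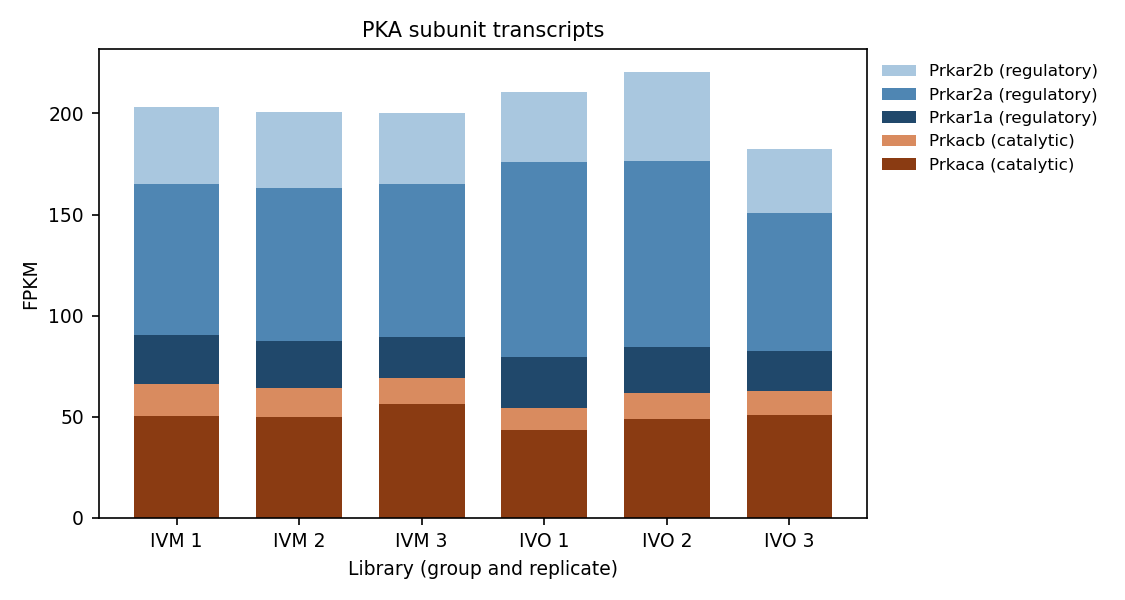
FPKM of the PKA subunit genes stacked for each library, IVM libraries left, with catalytic subunits at the bottom and regulatory subunits above. Prkar2a is the largest segment in every library, and IVO replicate 3 has the lowest stack through its Prkar2a (68.6) and Prkar2b (31.3).

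The order of FPKM levels differed between origins most in the place of Akap1. FPKM are scaled by transcript length, but the quantifier, strandedness and any poly(A) selection are not given. The order between genes is therefore approximate. In IVM, Akap1 (95.2 ± 12.8) and Gpr3 (93.1 ± 3.87) led and lay within their spread, followed by Prkar2a (75.3 ± 0.518), then Prkaca (52.3 ± 3.44) and Pde3a (50.4 ± 1.59), which again lay within their spread, then Prkar1a (22.6 ± 1.98), Prkacb (14.2 ± 1.26) and Adcy9 (1.66 ± 0.176). In IVO, Prkar2a (85.5 ± 14.9) and Gpr3 (84.7 ± 8.82) led within their spread, then Prkaca (47.8 ± 3.87) and Pde3a (42.6 ± 7.86), also within their spread, then Prkar1a (22.6 ± 2.65), Prkacb (11.8 ± 0.881), Akap1 (9.76 ± 2.13) and Adcy9 (2.12 ± 0.253); all are SD with n = 3. By mean, Akap1 was first of 10 in IVM and seventh in IVO, where it lay within the spread of Prkacb but below Prkacb in every library. Its first place rested on IVM replicate 3, since Gpr3 was the higher of the pair in IVM replicates 1 and 2. Gpr3 lay above Prkar2a in every IVM library, while in IVO the pair was not separated. Gpr12 and Adcy3 were last in both. The median FPKM of all tested genes was 7.01, and 7 of the 8 tested members lay above it in their mean over the 6 libraries.

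Groups did not overlap for 5 of the 10 genes, namely Akap1, Pde3a, Prkacb, Adcy9 and Gpr12, and for 4 of the 8 tested, against 53.5% of all tested genes. Without IVO replicate 3 the number was 8 of 10, or 7 of the 8 tested, against 64.4% of all genes tested in that setting. In the same setting 3 of the 8 tested members passed, Akap1, Gpr3 and Prkar2a, against 42.3% of all genes. That library held the highest IVO value of Gpr3, Prkaca, Gpr12 and Akap1 and the lowest IVO value of Pde3a, Prkar1a, Prkar2a and Adcy3. Of the 7 tested members that did not pass, Pde3a had the largest difference in size, 0.26, and 34.6% of all tested genes differed by no more than that. The 95% intervals of these 7 ran from -0.64 to 0.57 in all, so a p above the threshold does not show that they were equal. Rescaling each library to a common sum raised the median difference of all tested genes to 0.0971, against -0.0191 without it, and turned 1595 higher and 1583 lower calls into 1949 higher and 1167 lower. With that scaling 4 of 8 members passed, Akap1, Gpr3, Pde3a and Prkacb, all higher in IVM, against 40.2% of all genes. With quantile normalization 3 of 8 passed, against 41.4% of all genes.

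Cytoplasmic polyadenylation elements are short U-rich motifs near the 3′ end of a messenger RNA that bind the CPEB protein and govern when a stored oocyte transcript is translated. The DNA letters TTTTAT or TTTTAAT were searched on the transcript strand only, in the last 150 bases of the longest complete coding transcript of each gene (GENCODE M21, GRCm38). They were present in 4 of 10 members and in 30.0% of 6917 tested genes with a 3′ UTR of that length. The stretches of 30 bases around them are shown because they put Akap1, the gene that rose, beside Pde3a and Prkacb, which did not pass, and Adcy3, which was not tested, with the motif in capitals.
Akap1: tggtgttgactcTTTTATagactgtcttta
Pde3a: aagaattgacaTTTTAATccacaagtatta
Prkacb: gaaaatgtgttTTTTAATtcatcaataacc
Adcy3: agaacaggactgTTTTATtaaaagctttac
The motif ends 82 bases before the annotated transcript end in Akap1, 103 in Pde3a, 42 in Prkacb and 21 in Adcy3. The deposited locus of Pde3a stops at 141499351, short of the annotated gene end at 141507448. That of Adcy3 runs to 4240123, past the annotated gene end at 4213525. The stretches of Pde3a and Adcy3 may therefore not lie at the 3′ end on which FPKM was measured. The 4 genes differed in the poly(A) signal letters AATAAA and ATTAAA within the same 150 bases. Neither was present in Akap1 or Pde3a, while ATTAAA was present in Prkacb and Adcy3. A match is a description of letters and not evidence of a used site. Annotated 3′ UTR length was 963 bases in Akap1, 8555 in Pde3a and 369 in Adcy9, with a median of 1027 over the 10 genes and 1376 over tested genes. The deposited locus of Adcy9, on the minus strand, reaches 4284884, beyond the annotated 3′ end at 4287529. The lengths given for Pde3a and Adcy9 may thus differ from those of the measured gene models.

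The cAMP response element TGACGTCA is the DNA site through which PKA acts on transcription by way of CREB and its relatives. RefSeq promoters (GRCm38.p6) were found for 9 members, all but Pde3a, and the element, which reads the same on both strands, lay in promoters of 1 of them, Prkar1a, against 2.03% of all 27025 genes with a promoter entry. By promoter it was 2 of the 21 of these members, both of Prkar1a, against 1.79% of all 32851. It is shown in capitals within 30 bases of the plus strand at chr11:109650889-109650918, and it begins 49 bases before the nearest downstream start.
Prkar1a: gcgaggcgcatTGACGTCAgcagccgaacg
None was found in the promoters of Akap1.

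Akap1 was set against 17 other A-kinase anchoring protein genes, a comparison chosen after its values were seen. Of these 17, 8 were tested, none was higher and 3 were lower in IVM, a share of 37.5% against the 41.0% of all tested genes. With rescaling to a common sum or upper quartile, with no intensity trend and with library weights, 1 was higher. Akap10, whose product binds both types of regulatory subunit, fell to 12.4 ± 0.609 FPKM in IVM, against 36.4 ± 6.36 in IVO (SD, n = 3 each; log2 difference -1.47, limma adjusted p = 9.92e-05), and Wasf1 fell by 0.91 on the log2 scale (limma adjusted p = 0.00174). Akap1 made up 36.3%, 36.1% and 43.6% of the summed FPKM of all 18 genes in IVM, against 4.86%, 3.45% and 5.79% in IVO. The summed FPKM without Akap1 was 150.9 ± 7.19 in IVM and 199.3 ± 12.2 in IVO, and with Akap1 it was 246 ± 5.65 in IVM and 209 ± 11.0 in IVO (SD, n = 3 each). Akap1 had 1.26 ± 0.166 times the FPKM of Prkar2a in IVM and 0.119 ± 0.0436 times in IVO (SD, n = 3 each). Without IVO replicate 3, 5 of the 8 other anchoring genes passed, 1 higher and 4 lower, against 42.3% of all genes tested in that setting.

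**Figure D4:**
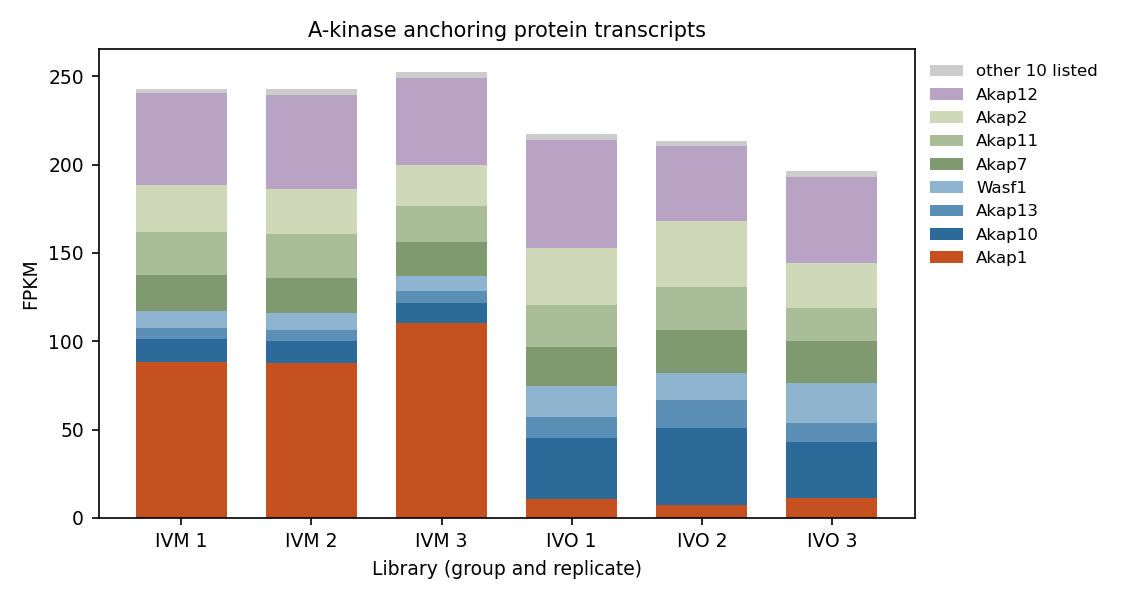
FPKM of the 18 A-kinase anchoring protein genes stacked for each library, IVM libraries left, with Akap1 at the bottom. The Akap1 segment is 87.5 to 110 FPKM in IVM and 7.35 to 11.4 in IVO, and the Akap10 segment is the thinner one in IVM.

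The tested gene whose pattern over the 6 libraries was nearest to that of Akap1 was Fxr2. Its log2(FPKM + 1), centred on its mean, differed from that of Akap1 by a root mean square of 0.131. The oocyte marker Padi6 and the tubulin gene Tubb2b, named after their values were seen, were nearly as close at 0.134 each. Fxr2, an RNA-binding protein gene, averaged 25.7 ± 3.87 in IVM, against 1.64 ± 0.513 in IVO, in FPKM (SD, n = 3 each).

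Among 123 other genes of the pathway, 65 were tested, of which 10 were higher and 24 lower in IVM, a share of 52.3% against 41.0% of all tested genes, of which 20.6% were higher and 20.4% lower. Their median log2 difference was -0.24, against 0.13 over the 8 tested members and -0.02 over all tested genes. The lists were chosen with earlier results of these data known, so the shares above do not test the pathway as a set. Upstream of the cyclases, Gnas, which encodes the stimulatory G protein alpha subunit that links GPR3 to adenylyl cyclase, was at 80.0, 70.5 and 83.7 FPKM in IVM, against 6.55, 7.19 and 11.0 in IVO. Its log2 difference of 3.12 (SE 0.177, limma adjusted p = 8.08e-06) was close in size to that of Akap1. Gnas spans an imprinted locus with several overlapping transcripts, and its antisense partner Nespas was listed at no more than 0.260 in any library. Of 13 tested G protein and regulator genes, 2 were higher and 5 lower. Gnai1, an inhibitory alpha subunit, was at 28.4 ± 3.25 in IVM and 72.3 ± 5.77 in IVO (SD, n = 3 each; log2 difference -1.32, limma adjusted p = 6.99e-05). The beta subunit gene Gnb2 fell by 1.02 (limma adjusted p = 0.000401) and Gnai2 rose by 0.32 (limma adjusted p = 0.0213), a call lost in 5 alternatives, without IVM replicate 1, IVM replicate 2 or IVO replicate 2 (limma adjusted p = 0.0680, 0.107 and 0.0591), with no intensity trend (0.0565) and without both libraries richest in Ptx3 (0.158). The ratio of Gnas to the 3 inhibitory alpha subunit genes together was 0.375 ± 0.0481 in IVM and 0.0305 ± 0.00978 in IVO (SD, n = 3 each), a ratio chosen after the values were seen.

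Of 2 other Gs-coupled receptor genes tested none passed, Ptger4 having the smallest p (limma adjusted p = 0.158), and without the filter 1 of 9 passed. Of 3 other cyclases Adcy5 was higher, averaging 3.41 ± 0.422 in IVM, against 2.05 ± 0.362 in IVO (SD, n = 3 each; limma adjusted p = 0.0459), a call lost in 10 alternatives, 5 of which left out a single library (limma adjusted p = 0.0718 to 0.138). Of 5 other phosphodiesterases Pde1b, which calcium and calmodulin activate, was higher (log2 difference 1.05, limma adjusted p = 0.0144). Pde1b did not pass without IVM replicate 2 or IVM replicate 3 (limma adjusted p = 0.0516 and 0.0636), or without the filter (limma adjusted p = 0.0514). Of 3 other PKA family genes Prkx, a related kinase, was higher (1.12, limma adjusted p = 0.00288), and Pkig, an inhibitor of the free catalytic subunit, was at 6.11 ± 1.55 in IVM and 16.5 ± 6.46 in IVO (SD, n = 3 each; -1.25, limma adjusted p = 0.00826). The count of 24 lower genes drew most on cAMP effectors and CREB factors, of which 8 of 9 tested were lower and none higher. In that list Atf1, a CREB relative, fell by 1.10 (limma adjusted p = 0.000237) and the coactivator gene Crtc1 fell by 0.74 (limma adjusted p = 0.00329). The list had 5 lower and 1 higher when libraries were rescaled to a common sum. It had 5 lower without IVM replicate 1 or IVM replicate 3, and 3 lower without both libraries richest in Ptx3. Over all genes, calls in these settings were 3116 of 7746, 2521 of 7728, 2426 of 7677 and 1965 of 7791, in that order.

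Of 3 tested genes of the cGMP arm and gap junctions, Gja4, the connexin gene of oocyte gap junctions, was higher, averaging 71.9 ± 7.92 in IVM, against 35.1 ± 7.75 in IVO (SD, n = 3 each; log2 difference 1.03, limma adjusted p = 0.00132). Of 19 tested targets and opponents of PKA in meiotic entry 4 were higher and 7 lower. Cdc25b, the phosphatase that PKA restrains, had 27.1, 29.4 and 32.1 FPKM in IVM, against 3.86, 1.62 and 0.635 in IVO (log2 difference 3.47, SE 0.336, limma adjusted p = 0.000107), and Ensa, which encodes an inhibitor of the phosphatase PP2A, rose by 2.69 (limma adjusted p = 0.000104). Plk1 and Mastl, kinase genes of the same step, fell by 0.93 and 0.84 (limma adjusted p = 0.00216 and 0.000371). The PKA target Wee2, named after its values were seen, had 298 ± 15.9 in IVM and 338 ± 13.7 in IVO (SD, n = 3 each) and did not pass (limma adjusted p = 0.0758). Without both libraries richest in Ptx3, 7 of the other pathway genes were higher and 13 lower, of 66 tested. Over all genes, 1965 of 7791 were called in that setting, which leaves 2 libraries a group.

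**Figure D5:**
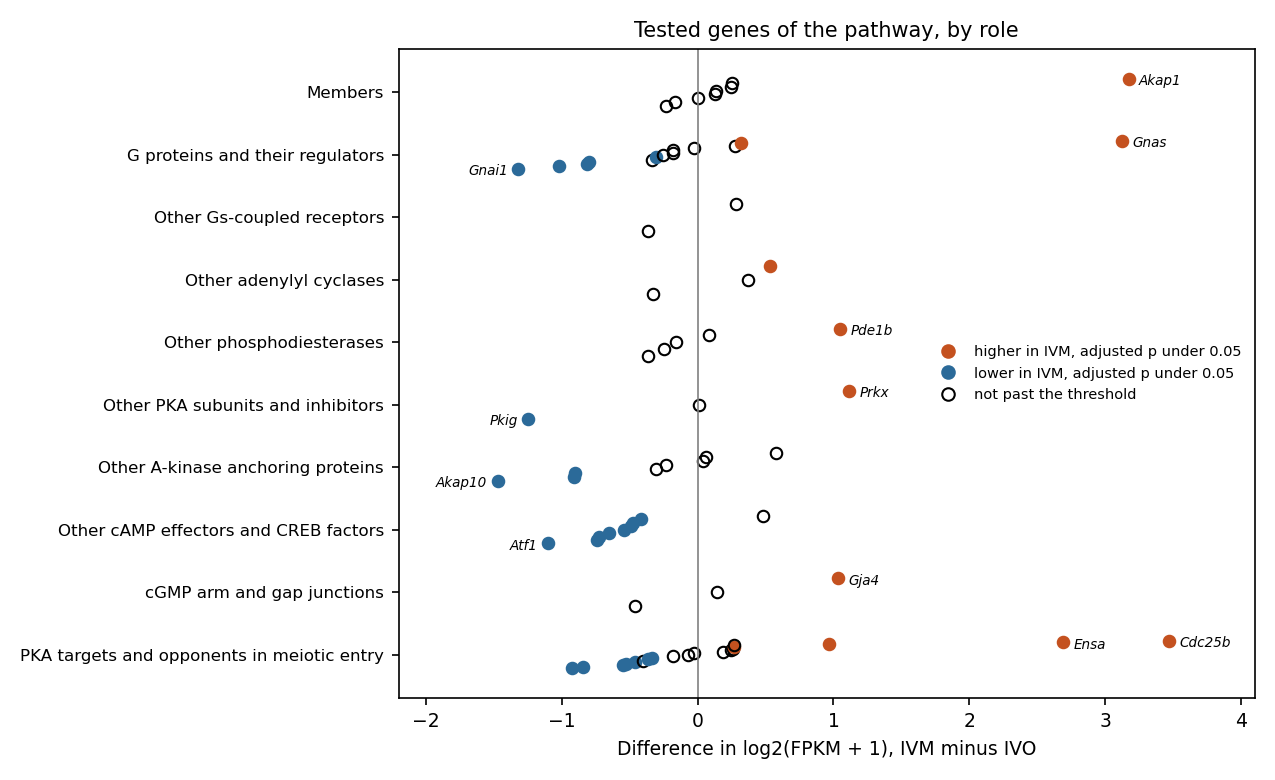
Difference in log2(FPKM + 1), IVM minus IVO, with 1 point per tested gene and 1 line of points per list, the 8 tested members at the top; filled points passed at an adjusted p under 0.05. Akap1 (3.17), Gnas (3.12), Cdc25b (3.47) and Ensa (2.69) stand to the right of all others shown.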

How the data were processed

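The authors deposited, per the file headers, a value in FPKM for each gene and library, with p-values and q-values of their own comparisons. Their processing notes list the genome build mm9 (per the submitters' processing notes), yet the loci given for all 10 genes overlap the GRCm38 genes of the same name, so coordinates printed are those of GENCODE M21 (GRCm38). Aligner, quantifier, strandedness and any poly(A) selection: not given in the sources used here. Read totals are unknown, so no interval for counting error is given.

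FPKM are not counts. The 7746 genes whose mean reached 1 FPKM were compared by limma 3.58.1 (R 4.3.3) after adding 1 and taking log2. The fit used an intensity trend. Tests were two-sided, and p-values were adjusted by Benjamini-Hochberg over all 7746 genes, with a threshold of 0.05.

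The members and gene lists were chosen with earlier results of these data known. All members were named, whatever their values. From each pathway list up to 2 called genes per direction with the largest difference were named, or the gene with the smallest p where none was called, and for Akap1 the gene nearest in pattern; genes outside this rule are marked in the text. Of the listed symbols 3 were matched to older names. Alternatives covered pseudocount, filter, scaling, variance model, a replicate block, each library left out, the threshold and the authors' q-values. The omission of both libraries richest in Ptx3 was added after the data were seen.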

Additional observations from a re-analysis of the deposited data

How the results depend on the processing

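Akap1 passed in all alternatives run. The number of members called, 1, was 4 with each library rescaled to 1 sum of FPKM and 3 with quantile normalization (Akap1, Pde3a and Adcy9), and it ranged from 1 to 3 when each library was left out in turn; the cause was not tested. The number of members whose groups do not overlap ranged from 5 to 8 of 10 when each library was left out. Among the 8 tested members it was 7 without IVO replicate 3 and 4 without any other library. The share over all tested genes was 57.6% to 64.4%. The sign of Prkar1a, whose difference is near 0, was negative with the difference of log2 mean FPKM used for the authors' calls (-0.0024), without both libraries richest in Ptx3 (-0.0373) and when single libraries were left out (range over these -0.0880 to 0.0745). Prkar2b, also near 0, gave -0.0388 with library weights and -0.0942 to 0.150 without single libraries. Over all genes 3178 were called. The number was 1965 without both libraries richest in Ptx3, which leaves 2 libraries a group, and 2028 at an adjusted p under 0.01. With a filter at a mean FPKM of 5, 835 were higher and 1392 lower. The replicate number as a block gave 3184 calls and the same 1 member. Deviations of libraries with the same number correlated at 0.0777, 0.0599 and 0.0900, each the highest for both libraries but under 0.1, a hint from the data and not from the design, so the numbers were not taken as pairs. Depth in reads is unknown, which limits what can be said of Gpr12 and Adcy3.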
